A study of Homo sapiens with 6 samples.

Results

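DNAJC30 and BUD23 are neighbouring genes in chromosome band 7q11, within the stretch that is deleted on one copy in Williams syndrome. They were studied here together with 8 genes around them, BAZ1B, BCL7B, TBL2, MLXIPL, STX1A, ABHD11, LIMK1 and EIF4H. The members were all probe sets annotated to 1 of these 10 genes, 21 of the 54613 human probe sets on the array, and none of the 21 is annotated to another gene as well. DNAJC30 and BUD23 were chosen by their higher intensity in the CTCF cells in this same comparison, so their change is described without a test. The neighbours were listed by position, and the question was whether the rise extends to them.

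The RNA came from K562, an established human cell line derived from a chronic myeloid leukemia, given no treatment beyond transfection and read on 6 Affymetrix U133 Plus 2.0 arrays. 2 arrays carried RNA of KpCDNA cells, K562 stably transfected with the empty pCDNA vector. The other 4 carried RNA of KCTCF-D11 cells, K562 stably transfected with the same vector holding CTCF, a DNA-binding protein of insulators and chromatin loop anchors. Each group is 1 named stable line, so CTCF and a property of either line cannot be told apart. The labels do not say whether replicates were separate cultures, and the p-values below then cover only the scatter among these 6 arrays, which may be technical.

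Williams syndrome genes have unrelated products that share a place on the chromosome. BUD23, formerly WBSCR22, is a methyltransferase that modifies the RNA of the small ribosomal subunit and works with the cofactor TRMT112. DNAJC30 is a J-domain protein of mitochondria that is needed for the upkeep of respiratory complex I. Both genes are read outward from a short shared stretch of DNA, on opposite strands.

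Their starts lie 144 bases apart in RefSeq, and the 143 bases between the starts are shown because they are all the DNA that separates the pair, followed by the 143 bases before the starts of STX1A and ABHD11, the next measured genes beyond BUD23. All are from RefSeq's promoter table (GRCh38.p14), written 5′ to 3′ on the strand named. Capitals mark CCAAT boxes (CCAAT) and GC boxes (GGGCGG), found on either strand. The DNAJC30-BUD23 stretch is chr7:73683454-73683596 on the plus strand, STX1A is chr7:73719670-73719812 on the minus strand and ABHD11 is chr7:73738803-73738945 on the minus strand.
DNAJC30-BUD23: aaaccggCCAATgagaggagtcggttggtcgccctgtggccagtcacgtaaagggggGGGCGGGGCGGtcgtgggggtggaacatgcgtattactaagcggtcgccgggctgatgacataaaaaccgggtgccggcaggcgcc
STX1A: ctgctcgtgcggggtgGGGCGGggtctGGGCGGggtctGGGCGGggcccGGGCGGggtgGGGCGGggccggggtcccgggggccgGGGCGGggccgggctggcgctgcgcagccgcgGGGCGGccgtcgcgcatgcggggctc
ABHD11: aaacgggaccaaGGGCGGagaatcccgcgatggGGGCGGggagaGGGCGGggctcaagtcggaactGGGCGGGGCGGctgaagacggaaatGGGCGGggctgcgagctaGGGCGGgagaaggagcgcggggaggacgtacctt

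The shared stretch held 1 CCAAT box and 2 GC boxes, which overlap in 1 base, and 64.3% of its bases were G or C. The STX1A and ABHD11 stretches held 7 GC boxes each and no CCAAT box, with 88.1% and 69.9% G or C. A CTCF core (CC, any 3 bases, AG, any 2 bases, GGC) and an E-box (CACGTG) were not found in these 3 stretches. In windows from 250 bases before to 50 after the start, searched on both strands, LIMK1 held 1 CTCF core, the other 9 members held none, and EIF4H held 1 E-box. Of 27305 RefSeq windows of that length, 10.6% held the CTCF core, 35.7% a CCAAT box, 44.6% a GC box and 7.43% an E-box. A match of letters describes the sequence and does not show a binding site.

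Clustered on 45 spike-in control probe sets, the arrays fell into 2 sets that cross the groups. The smaller set joins CTCF array 4 to empty vector array 1, and the larger joins CTCF arrays 1, 2 and 3 to empty vector array 2. The array set was therefore a block in the limma fit on log2(intensity + 16), and log2 changes below are CTCF over empty vector from that fit, ± SE. A change was called at a Benjamini-Hochberg adjusted p under 0.05 over all probe sets, and "rose" and "fell" are used only of called changes. CTCF itself rose by 1.29 on that scale, from an intensity of 545 to 1397. All 9 measured markers of K562 had a mean intensity above 100. Their summed intensity was 22269 to 22876 in the empty vector and 28767 to 34632 in the CTCF arrays, so it moved with the group. Among them only HBZ was called, with means of 2260 and 7038 (log2 change 1.58). GATA1, NFE2 and EPOR had log2 changes of -0.25, -0.20 and -0.09, and the other K562 markers had positive ones. Of 17 measured markers of other cell types 5 passed 100, namely CD3D, LYZ, EPCAM, KRT19 and COL3A1, and the summed level was 4770 to 10696 in the empty vector and 3943 to 9687 in the CTCF arrays. Among monocyte markers CD14 was at most 1.23, while LYZ had means of 331 with empty vector and 608 with CTCF, without overlap (log2 change 0.67 ± 0.35, not called). COL3A1, a fibroblast collagen, followed the array set, at 6627 and 6114 on the smaller set's arrays and 146 to 165 on the others, and CD3D, a T-cell chain, fell by 1.04 on the log2 scale. The part of these markers in the results below was not tested, and in bulk RNA fewer cells of a type and less RNA per cell cannot be told apart.

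DNAJC30 was higher in every CTCF array than in either empty vector array. Its brightest probe set (223367_at) had intensities of 62.1 and 129 in empty vector arrays 1 and 2, and 237, 309, 306 and 137 in CTCF arrays 1 to 4. The groups did not overlap, but only narrowly, since CTCF array 4 of the smaller set lay just above empty vector array 2 of the larger. Compared within sets, CTCF array 4 read 2.21 times empty vector array 1 in the smaller set. In the larger set the CTCF mean was 2.19 times empty vector array 2. These are the same values that chose the gene. The group means were 95.8 ± 47.6 (SD, n = 2) and 247 ± 80.5 (SD, n = 4), and the log2 change was 1.01 ± 0.15. The remaining DNAJC30 probe sets did not show it. 239018_at ran from 17.6 to 46.6 across the empty vector pair of arrays and from 13.5 to 43.4 across CTCF, with a log2 change of -0.31 ± 0.19, and 239194_at read at most 10.4 on any array, with 0.16 ± 0.14. Both had mean levels below the median of all probe sets, so the rise of DNAJC30 rests on 1 probe set of 3.

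BUD23 was also higher in every CTCF array. Its brightest probe set (207628_s_at) had intensities of 916 and 1137 in empty vector arrays 1 and 2, and 1772, 1953, 1892 and 1563 in CTCF arrays 1 to 4. Every CTCF array lay well above both empty vector arrays, in either array set. The means were 1027 ± 156 (SD, n = 2) and 1795 ± 172 (SD, n = 4), and the log2 change was 0.73 ± 0.12. Within the smaller set CTCF array 4 read 1.71 times empty vector array 1. Within the larger the CTCF mean was 1.65 times empty vector array 2. The other BUD23 probe set (231415_at) read 1.00 on both empty vector arrays and at most 10.2 on any array, too dim to follow. With the mean of each array set taken off, the pair's brightest probe sets had a Pearson correlation of 0.99 over the 6 arrays. It is a description: both were chosen as higher with CTCF and are read from the same 6 RNA samples. A high value follows largely from that choice.

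The calls that chose the pair are close to the threshold. Their adjusted p-values in limma were 0.0441 for DNAJC30 and 0.0474 for BUD23, and 1.86% of all probe sets passed in either direction, 0.538% as higher and 1.32% as lower. These values selected the genes and support nothing. Without the array set block they were 0.604 and 0.366, and 0.011% of all probe sets passed. With the block, DNAJC30 passed only when CTCF array 1 was the array left out (0.0457), with 0.138 to 0.479 without any other array, and BUD23 had 0.0596 to 0.432 without any 1 of the 6. Neither gene is in the authors' deposited table of 768 probe sets, 1.41% of those tested, which requires a lower bound of the fold change of 1.5 and a difference of means of 90, and none of the 44 probe sets of the Williams region is.

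**Figure D1:**
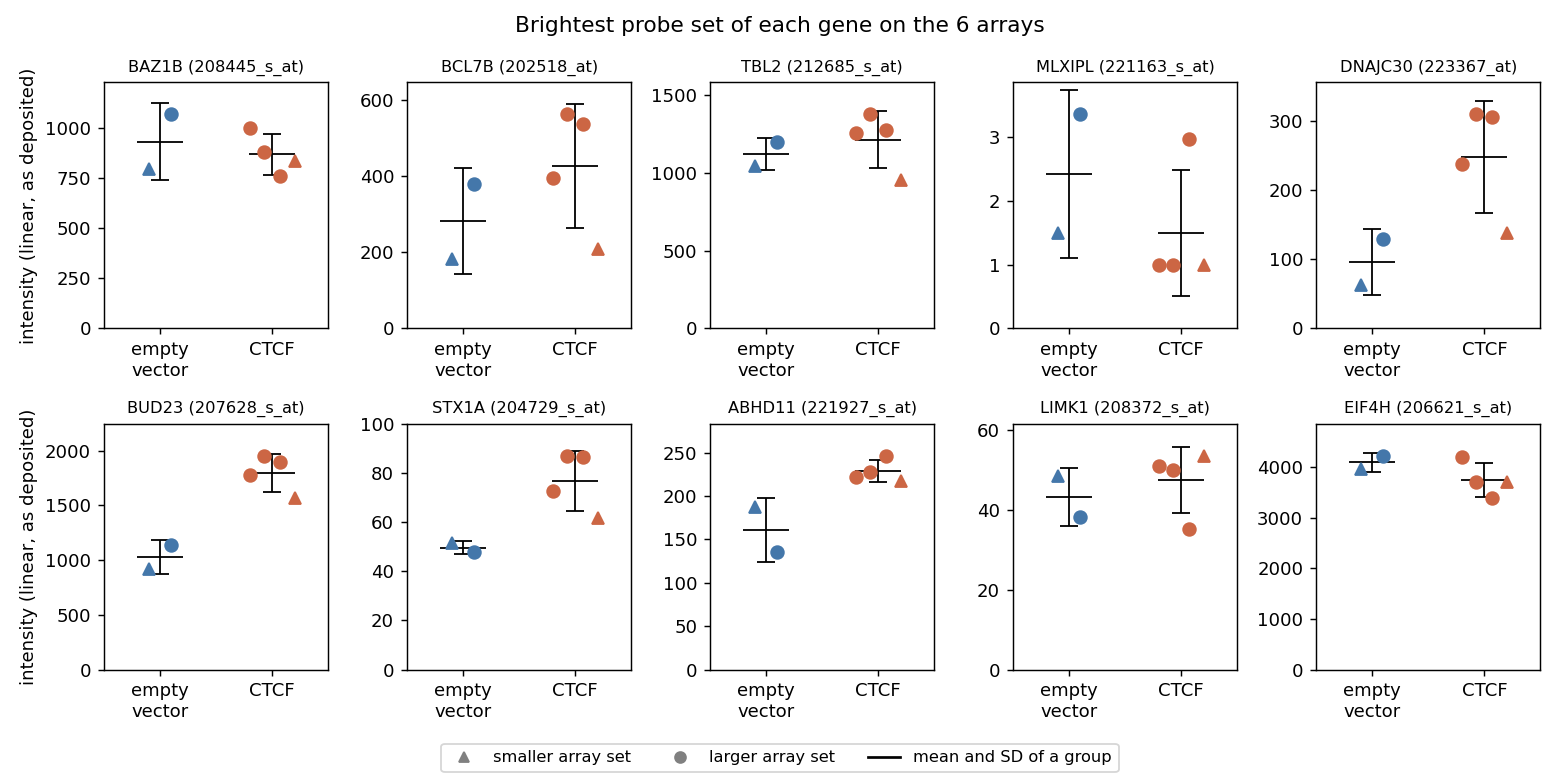
Intensity on a linear scale (vertical axis, as deposited) of the brightest probe set of each of the 10 genes on the 2 empty vector arrays (blue) and 4 CTCF arrays (red), with triangles for the smaller and circles for the larger array set and black lines for each group's mean and SD. The groups do not overlap for DNAJC30 and BUD23, which were chosen as higher, nor for STX1A and ABHD11, and they overlap for the other 6 genes. Over all probe sets 6.06% were higher without overlap, and 13.2% did not overlap in either direction. The groups overlap in the ABHD11 probe sets that are not shown.

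No neighbour was called. Of the 16 probe sets of the 8 neighbours, 0 passed in limma with the array set block, and 0 passed without it. As 1.86% of all probe sets passed with the block, 0 of 16 cannot tell whether the rise extends to the neighbours. At an unadjusted p under 0.05 there were 3, all higher and all from STX1A and ABHD11, where 7.43% of all probe sets were higher at that level. Of the 16 log2 changes 8 were positive and 8 negative, with a median of -0.02 and a range of -0.27 to 0.65. Those of the brightest probe sets were positive for 5 genes and negative for 3. The groups did not overlap for 2 of the 16, both higher, which compares with 6.06% of all probe sets that were higher in that way and 13.2% in either direction. The difference between the pair's change and that of a neighbour was not tested, because the pair was chosen for its size.

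STX1A and ABHD11, the next measured genes on the BUD23 side, had the largest positive values among the neighbours. STX1A, a syntaxin of the membrane fusion machinery best known from nerve terminals, had intensities of 51.4 and 47.7 in empty vector arrays 1 and 2, and 72.7, 87.0, 86.3 and 61.5 in CTCF arrays 1 to 4. All 4 CTCF arrays were above both empty vector arrays, by a smaller step in the smaller set. The log2 change was 0.45 ± 0.15, with a 95% interval of 0.08 to 0.82, and did not pass (adjusted p = 0.201 in limma). Within the smaller and larger sets the log2 difference was 0.20 and 0.62.

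ABHD11, a mitochondrial hydrolase, was read by 3 probe sets that differ. The brightest (221927_s_at) had intensities of 187 and 135 in empty vector arrays 1 and 2, and 222, 228, 246 and 217 in CTCF arrays 1 to 4, again without overlap. Its log2 change of 0.51 ± 0.16 did not pass (95% interval 0.13 to 0.89, adjusted p = 0.166 in limma). The second (1552470_a_at) read 10.98 and 49.5 with empty vector, against 82.9, 101, 96.2 and 23.0 with CTCF. Here the groups overlapped, since CTCF array 4 lay below empty vector array 2, while both sets taken alone showed a higher CTCF value. Its log2 change of 0.65 ± 0.13 was the nearest to a call among the neighbours (adjusted p = 0.0760 in limma). It passed when probe sets dimmer than the median were left out before the fit (adjusted p = 0.0389 in limma). In that fit 2642 of 27307 probe sets passed, against 1017 of 54613 when none were left out, so calls were more common there. The third (1552800_at) read 30.1 and 33.2 with empty vector, 47.5, 42.8, 51.6 and 17.3 with CTCF, and had a log2 change of 0.03 ± 0.21, with opposite signs in the array sets.

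On the other side of the pair, the genes toward BAZ1B showed no change that passed. TBL2, a protein with WD repeats, had its brightest probe set (212685_s_at) at 1046 and 1195 with empty vector and 1255, 1375, 1272 and 952 with CTCF. The groups overlapped, the log2 change was 0.02 ± 0.13 and its 95% interval was -0.29 to 0.33. BCL7B, a subunit of BAF chromatin remodelling complexes, had intensities of 183 and 380 with empty vector and 396, 563, 538 and 208 with CTCF. Its values followed the array set more than the group, and its log2 change was 0.29 ± 0.18 (95% interval -0.15 to 0.73).

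BAZ1B, the subunit of ISWI remodellers also known as WSTF, had 4 probe sets with log2 changes of -0.21 to 0.07. The brightest (208445_s_at) had intensities of 795 and 1068 with empty vector and 1002, 878, 760 and 835 with CTCF, with a log2 change of -0.14 ± 0.17 (95% interval -0.55 to 0.26). MLXIPL, the sugar-responsive transcription factor ChREBP, read 1.49 and 3.36 with empty vector and 1.00 to 2.98 with CTCF. With a mean level at percentile 2.11 of all probe sets, a difference was not detectable. VPS37D, an endosomal sorting protein whose gene lies between MLXIPL and DNAJC30, was also dim, at 1.00 to 17.3 and percentile 12.1 (log2 change -0.06 ± 0.13).

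LIMK1 and EIF4H lie farther beyond ABHD11. EIF4H, a cofactor of the helicase that opens messenger RNA for translation, was the brightest member, at 3966 and 4228 with empty vector and 4202, 3713, 3393 and 3704 with CTCF. The groups overlapped and the log2 change was -0.14 ± 0.14 (95% interval -0.48 to 0.19). LIMK1, a kinase that inactivates the actin-severing protein cofilin, was near the median of all probe sets. Its brightest probe set (208372_s_at) had intensities of 48.4 and 38.1 with empty vector and 51.0, 49.9, 35.3 and 53.5 with CTCF, with a log2 change of 0.15 ± 0.16. The other LIMK1 probe sets had -0.27 ± 0.15 and -0.19 ± 0.22, so its probe sets did not share a sign.

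**Figure D2:**
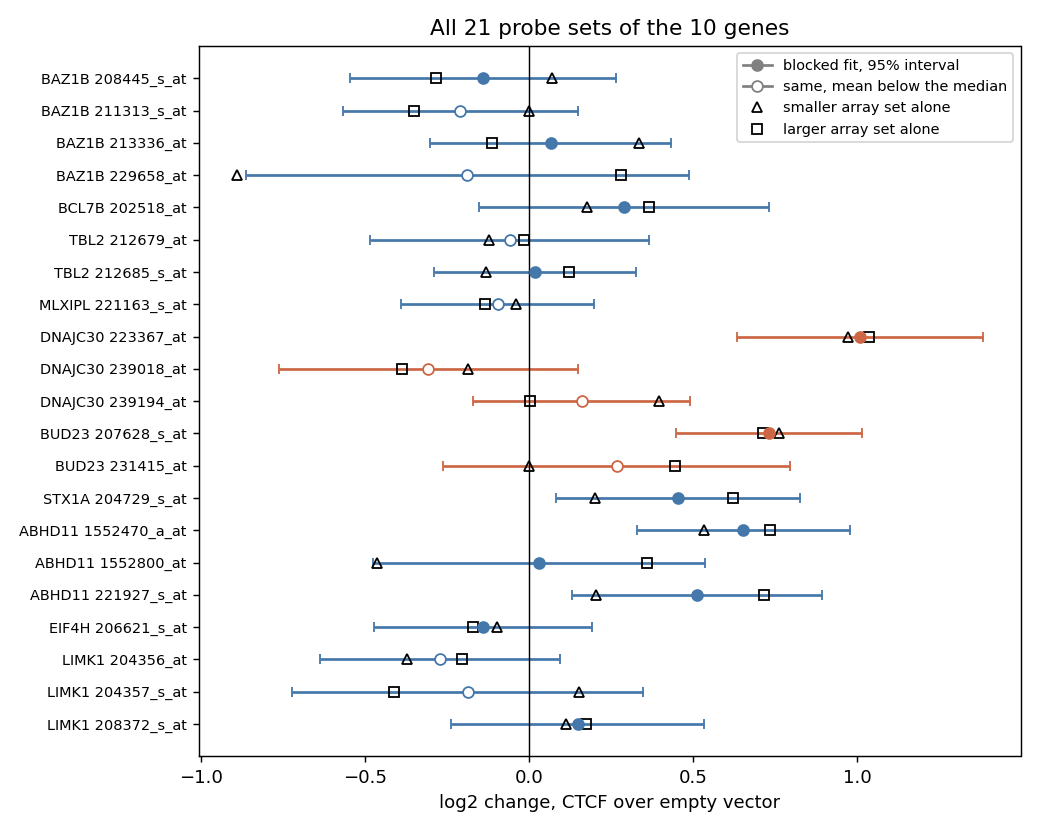
Log2 change, CTCF over empty vector, of all 21 probe sets of the 10 genes from the fit with the array set block (circles, bars are 95% intervals, open where the mean level is below the median of all probe sets), with the difference in the smaller (triangles) and larger (squares) array set alone. 223367_at of DNAJC30 and 207628_s_at of BUD23, which chose the pair, sit at 1.01 and 0.73 with nearly the same value in both sets. The pair's remaining probe sets range from -0.31 to 0.27, and the neighbours' probe sets from -0.27 to 0.65.

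The wider region was read from 25 genes, from NSUN5 to GTF2I, each by its brightest probe set. The only calls were those of DNAJC30 and BUD23, which chose the pair, so nothing is read from them, and of the other 23 genes 0 passed in limma. Over all 19775 genes 2.57% passed and 0.622% rose. Of the 23, 15 had a positive and 8 a negative log2 change, with a median of 0.06 against -0.02 over all genes and -0.03 over the 933 measured genes of chromosome 7. An unadjusted p under 0.05 in limma was found for 4 of the 23, 17.4%, where 21.4% of all genes had one in either direction. These 4, STX1A, ABHD11, ELN and GTF2I, had a positive change. Of all probe sets 7.43% were higher at that level, a share over probe sets and not over genes. Whether the region exceeds either share was not tested. GTF2I, a transcription factor, had a log2 change of 0.57 ± 0.18 (adjusted p = 0.174 in limma) from the probe set that names it alone. Its sequence is repeated in nearby pseudogenes, and which copy the probe set reads is uncertain. ELN, for elastin, had 0.34 ± 0.12 (adjusted p = 0.228 in limma) at intensities that followed the array set, 73.4 and 86.1 against 20.9 to 35.5, and its other probe set (216269_s_at) had the opposite sign, -0.28 ± 0.21.

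The run of genes between ABHD11 and ELN was nearly silent. The claudins CLDN3 and CLDN4, the methyltransferase-like gene METTL27 and TMEM270 had mean intensities of 1.40 to 11.9 in either group and log2 changes of 0.06 to 0.27. Nothing can be read from these 4 genes on how far a change extends past ABHD11. FZD9, a Wnt receptor whose gene lies on the other side, before BAZ1B, was also dim, with a mean of 11.4 in both groups and a log2 change of 0.04.

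Genes of the region with more signal did not pass either. RFC2, a subunit of the clamp loader of DNA replication, had a mean of 839 in the empty vector and 1041 in the CTCF arrays and a log2 change of 0.29 ± 0.14, and GTF2IRD1, a relative of GTF2I, had 0.02 ± 0.14. NSUN5, an RNA methyltransferase with near-identical pseudogenes, had -0.02 ± 0.14. TRIM50, a ubiquitin ligase, had 0.16, FKBP6, a germ-cell immunophilin, -0.07, and LAT2, an adaptor of immune receptors, -0.12. CLIP2, a microtubule-binding protein and dimmer than the median, had -0.66 ± 0.35, with opposite signs in the 2 array sets (0.29 and -1.30).

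Outside the region no flanking gene passed either. Before NSUN5, POM121 had a log2 change of -0.40, STAG3L3 of -0.88 ± 0.24 (adjusted p = 0.138 in limma) and PMS2P8 of -0.17. After GTF2I, GTF2I-AS1 had 0.46, NCF1 -0.07 and GTF2IRD2 0.21. Several of these lie in repeated sequence, and which copy they read is uncertain. The nearest called gene on each side, chosen here after the values were seen, fell. ZNF117, a zinc finger gene 27 measured genes before NSUN5, had log2 changes of -3.04 and -3.12 in 2 of its 4 probe sets. HIP1, an endocytic adaptor 12 measured genes after GTF2I, had -1.28 and -1.27 in 2 of its 4. For 205425_at of HIP1 the groups overlapped, at 77.4 and 216 with empty vector and 27.9 to 80.2 with CTCF. RHBDD2, 15 measured genes after GTF2I, also fell, by only 222995_s_at of its 2 probe sets (log2 change -1.10). HIP1 (226364_at) has a signed fold change of -2.41 in the authors' deposited table. HSPB1, a small heat shock protein 22 measured genes after GTF2I, has one of 2.18 in the authors' deposited table, and its log2 change of 0.96 ± 0.19 was not called (adjusted p = 0.0695 in limma).

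**Figure D3:**
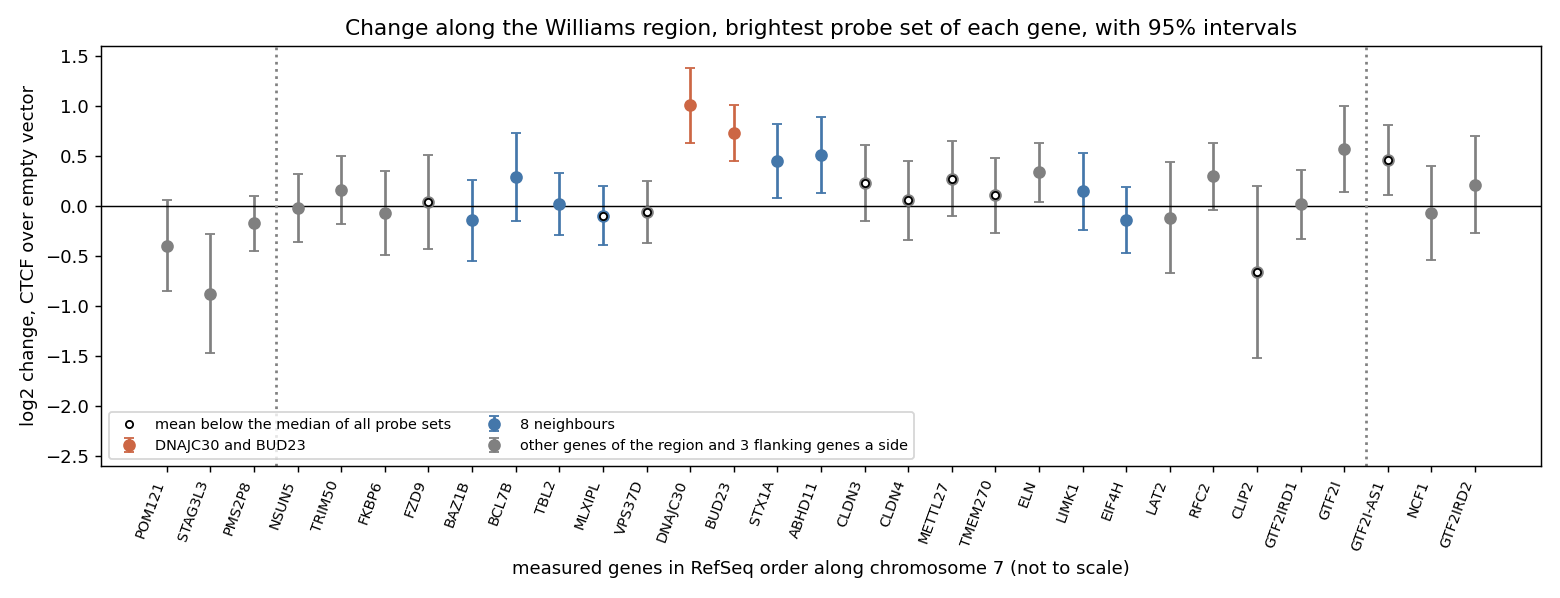
Log2 change, CTCF over empty vector, with 95% intervals, of the brightest probe set of 31 genes in RefSeq order along chromosome 7, from 3 flanking genes before the Williams region to 3 after it (dotted lines mark its ends, and distances are not to scale). DNAJC30 and BUD23 (red) stand at 1.01 and 0.73, STX1A and ABHD11 (blue) at 0.45 and 0.51, and the dim genes (white centres) from CLDN3 to TMEM270 at 0.06 to 0.27.

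To set the joint change of the pair against other genes of the same arrangement, all head-to-head pairs were taken, neighbouring measured genes on opposite strands that are read away from each other with starts at most 1000 bases apart. There were 991. In 2 of them, 0.202%, both partners had a log2 change of at least 0.73, the smaller value of DNAJC30 and BUD23: that pair itself, and ESF1 with NDUFAF5. ESF1, a nucleolar protein of ribosome synthesis, had 0.94 and NDUFAF5, an assembly factor of respiratory complex I, had 1.02, with adjusted p-values of 0.0538 and 0.0596 in limma. In 3 pairs both partners were lower by at least as much, MARF1 with NDE1, AAK1 with ANXA4 and GMDS with GMDS-DT.

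Joint calls were as rare. Both partners were called in 2 of the 991 pairs, DNAJC30 with BUD23 and AAK1 with ANXA4, and exactly 1 partner in 34. The partners' changes had the same sign in 54.4% of pairs, and their Pearson correlation across pairs was 0.11, a description over genes measured on the same arrays. Of all partners taken singly, 3.63% had a log2 change of at least 0.73. The limit of 0.73 was set by the pair itself, so these counts describe its place and test nothing.

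**Figure D4:**
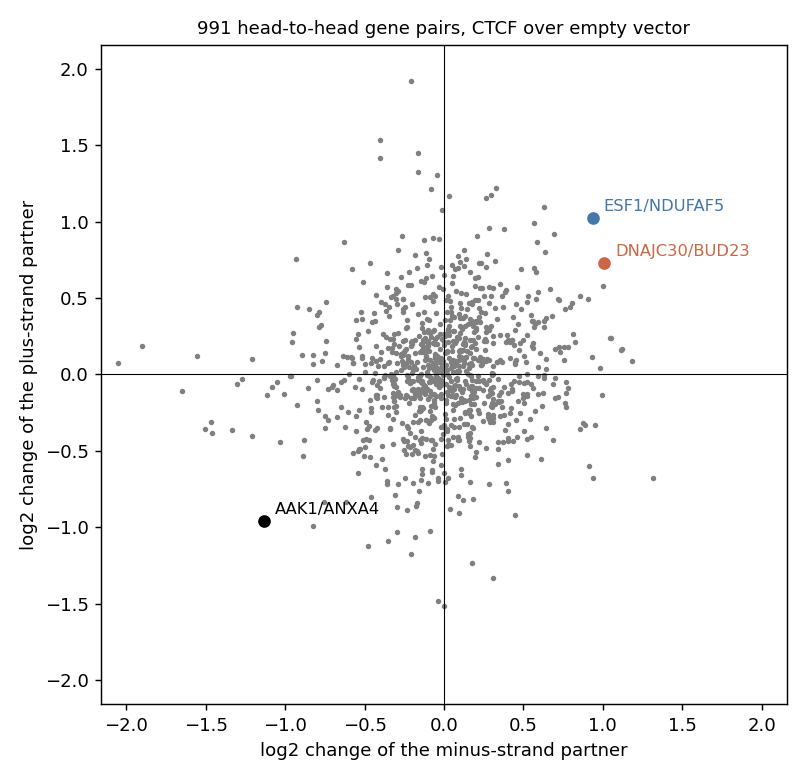
Log2 change, CTCF over empty vector, of the minus-strand partner (horizontal axis) and the plus-strand partner (vertical axis) in 991 head-to-head gene pairs, 1 point a pair. DNAJC30/BUD23 (red, 1.01 and 0.73) and ESF1/NDUFAF5 (blue, 0.94 and 1.02) lie in the upper right, and AAK1/ANXA4 (black, -1.13 and -0.96) in the lower left.

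Among genes other than the members, the 5 most like the pair across the arrays lie on other chromosomes. The pair was chosen for its difference between the groups, so likeness to it largely means following that difference, and nothing was tested. The measure was the Pearson correlation over the 6 arrays with the mean of the pair's brightest probe sets, after the mean of each array set was taken off. The ranking took 11687 genes above the median level, without the members and without LOC, LINC or orf symbols. The highest 5 were NSMCE3, RRP15, PPP2R1B, EXOSC3 and TIMM13, at 0.9993 to 0.9995, and 791 reached 0.95. These 5 lie on chromosomes 15, 1, 11, 9 and 19. Nearly all genes ranked lie outside the Williams region, so these places cannot tell whether a change extends along it. RRP15 and EXOSC3 act in the processing of ribosomal and other RNA, TIMM13 is a chaperone of mitochondrial protein import, PPP2R1B a scaffold of protein phosphatase 2A and NSMCE3 a subunit of the SMC5-SMC6 complex. RRP15 rose by 1.86 ± 0.19, EXOSC3 by 1.39 ± 0.15, PPP2R1B by 1.39 ± 0.17 and TIMM13 by 1.03 ± 0.14, and NSMCE3 had 0.42 ± 0.11 (adjusted p = 0.135 in limma). The same correlation was 0.91 for STX1A, 0.89 for ABHD11 and 0.77 for BCL7B, 0.39 for LIMK1, 0.20 for TBL2, and -0.54 for BAZ1B, -0.55 for MLXIPL and -0.70 for EIF4H.

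Lists of pathway partners were followed for 8 of the 10 genes, without TBL2 and ABHD11. Over all genes 0.622% rose, 46.9% had a positive change and 21.4% an unadjusted p under 0.05 in limma. The lists' counts are to be read beside these shares, which are not matched for level. Of all 19775 genes 12108 lie above the median intensity, against all 14 of the first list below. With dim probe sets left out, 7864 of 27307 had an unadjusted p under 0.05 in limma, against 9631 of all 54613. Among 14 measured genes of ribosomal RNA modification and TRMT112 partners, listed for BUD23, 1 rose and 0 fell. Of these 14, 12 had a positive change and 6 an unadjusted p under 0.05 in limma. The median was 0.28, against -0.02 over all genes. EMG1, a methyltransferase of the same ribosomal subunit, rose by 1.17 ± 0.17, and its means were 520 ± 218 (SD, n = 2) with empty vector and 1284 ± 238 (SD, n = 4) with CTCF. Of 12 mitochondrial J-domain proteins and their chaperone partners, the family of DNAJC30, 0 passed (3 at an unadjusted p under 0.05 in limma), with a median of 0.14, and HSPD1, the mitochondrial chaperonin, had 0.32 ± 0.11.

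Lists for the neighbours gave 1 further call. Their counts are to be read beside the same shares, 0.622% risen and 21.4% at an unadjusted p under 0.05 in limma over all genes. Of 16 BAF subunits around BCL7B, 1 rose and 0 fell, with 2 at an unadjusted p under 0.05 and a median of 0.03. SS18 rose by 0.83 ± 0.12, and its means were 317 ± 116 (SD, n = 2) and 639 ± 135 (SD, n = 4). No gene passed among 13 ISWI partners of BAZ1B (median -0.02, 3 at an unadjusted p under 0.05 in limma, DDX21 at 0.20 ± 0.11), 10 of the MLX network of MLXIPL (median 0.04, 2 unadjusted, TXNIP at 0.00 ± 0.26) or 8 translation factors around EIF4H (median 0.23, 3 unadjusted, PABPC1 at -0.13 ± 0.13). None passed among 12 genes of the cofilin pathway of LIMK1 (median -0.12, 1 unadjusted, CFL1 at 0.12 ± 0.11) or 10 exocytic SNARE partners of STX1A (median -0.32, 5 unadjusted, SNAP29 at -0.27 ± 0.11).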

How the data were processed

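Biotin-labelled RNA of 6 K562 samples was read on Affymetrix U133 Plus 2.0 arrays, per the labels' protocols. The deposited intensity of a probe set on an array is on a linear scale, and how it was background-corrected, summarised and normalized is not given in the sources used here. Values of the authors' deposited table (means, signed fold changes with bounds) were taken as scores. Its averages are weighted by standard error, per the file headers. Array medians were 28.9 to 34.2, and no further normalization was applied. The number of arrays limits the precision.

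All 54613 probe sets other than 62 AFFX controls were analysed as log2(value + 16) in limma 3.58.1 (R 4.3.3, lmFit and eBayes, 2-sided) with group and array set, the sets coming from hierarchical clustering on 45 spike-in probe sets. Folds on this scale understate changes of dim probe sets. 41091 probe sets have 1 gene in GEO's platform annotation, 1801 several and 11721 none, and only the first were named. 41031 matched a RefSeq gene (GRCh38.p14) by Entrez ID. The files name no build, so coordinates are given only with RefSeq sequences, for which all 10 members were in the table. A gene with several probe sets was read by the brightest, the one whose mean log2 value was highest. The genes named are all members, the Williams region list, 3 flanking genes a side, CTCF, the 5 genes most like the pair, and up to 3 called genes or the brightest per list. Cell type markers, head-to-head pairs whose partners changed together and called genes near the region are named as well. HSPB1 was named outside these rules. The members, lists and tests were chosen with earlier results of these data known. The fits were tested on simulated data. The alternatives were other scalings, pseudocounts, variance models, blocks and filters, and leaving out each array. The larger array set alone was added after seeing the data.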

Additional observations from a re-analysis of the deposited data

Results flagged for a closer look

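In the 21 probe sets the 4 CTCF arrays were examined for 1 array far from the other 3 on the log2 scale, by Dixon's ratio, which marks about 1 in 20 groups by chance. 3 probe sets were marked. ABHD11 (1552470_a_at) read 22.99 in CTCF array 4 and 82.9 to 101 in the others, and that array is of the smaller set, where the empty vector array was also lowest, at 10.98. DNAJC30 (239194_at) read 10.4 in CTCF array 4 and 1.00 to 1.19 in the others. MLXIPL (221163_s_at) read 2.98 in CTCF array 3 and 1.00 in each of the others, at a level where nothing can be read.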

How the results depend on the processing

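Of all 54613 probe sets 1017 passed, 294 higher and 723 lower. There were 1198 with quantile normalization (506 higher, 692 lower) and 1443 with median centring, 2140 with a pseudocount of 64 and 2 with a pseudocount of 1. There were 2642 of 27307 with dim probe sets left out, 2567 with a variance trend, 1913 with array weights, 22 at an adjusted p under 0.01, 6 without the array set block and 0 in the larger array set alone, an alternative added after seeing the data. Leaving out each array gave 0 to 762. In the Williams region 2 genes passed. The count stayed at 2 under quantile normalization, median centring, a pseudocount of 64, dim probe sets left out, the variance trend and array weights. It was 0 without the array set block, with a pseudocount of 1, at 0.01, in the larger set alone and with each gene read by the average of its probe sets, and 0 to 1 with each array left out. Of the neighbours' probe sets 1 passed with dim ones left out (ABHD11) and 0 under each other alternative.

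Under the 22 alternatives the log2 change stayed positive for DNAJC30 (223367_at, 0.77 to 1.69) and BUD23 (207628_s_at, 0.65 to 0.95). It also stayed positive for STX1A (0.20 to 0.62) and the brightest probe set of ABHD11 (0.20 to 0.72). The groups do not overlap in these probe sets, so leaving out an array could not turn the sign, and the pair was chosen as higher. Not all alternatives are distinct, since dropping empty vector array 1 or CTCF array 4 with the block kept repeats the larger set's values. The kept signs are therefore a description and no test of the rise. The replicate number as a block in place of the array set gave 0 calls in the whole table, the neighbours and the Williams region. The labels give the numbers 1 and 2 in both groups but no shared culture or day, so the samples share only a number, and the spike-in probe sets join empty vector 1 with CTCF 4.

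The signs that turned belong to small changes that passed under no alternative. Under the replicate block they were BAZ1B 208445_s_at (0.025), TBL2 212679_at (0.0078), DNAJC30 239018_at (0.11) and 239194_at (-0.12), and LIMK1 204356_at (0.27). Without the array set block they were TBL2 212679_at (0.040) and LIMK1 204356_at (0.018), with a pseudocount of 1 ABHD11 1552800_at (-0.0089), and in the larger set alone BAZ1B 213336_at (-0.11) and 229658_at (0.28). With each array left out, the ranges that cross 0 were -0.47 to 0.41 for ABHD11 1552800_at, -0.30 to 0.12 for BAZ1B 208445_s_at, -0.41 to 0.19 for 211313_s_at, -0.33 to 0.98 for 213336_at and -0.89 to 0.28 for 229658_at. They were -0.56 to 0.34 for DNAJC30 239018_at, -0.12 to 0.40 for 239194_at, -0.51 to 0.55 for LIMK1 204356_at, -0.46 to 0.30 for 204357_s_at, -0.032 to 0.22 for 208372_s_at, -0.14 to 0.21 for TBL2 212679_at and -0.13 to 0.21 for 212685_s_at. The cause of these turns was not tested. Probe sets near the floor of 1.00, such as that of MLXIPL, limit what can be read.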
